A study of Mus musculus with 7 samples.

Results

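The genes examined here encode 10 proteins of calcium handling, and they were taken up because a *Tbx5*-dependent noncoding RNA (ncRNA) of the left atrium was listed beside each of them. They are *Ryr2*, *Casq2*, *Casq1*, *Jph2*, *Cacna1h*, *Cacna2d2*, *Atp2b1*, *Atp2b4*, *Itpr1* and *Itpr2*. A listed locus was counted as a member when its column of neighbouring genes, or its column of linked genes, named one of these symbols. Linked genes are nearby coding genes that the study called changed in the left atrium. The heading of that column says dn and nearest, so genes changed the other way may be missing from it. By this rule 13 of 1489 listed loci were members, in 13 pairs of a locus and a gene. Of the 10 genes, 7 had 1 locus and 3 had 2 loci (*Casq2*, *Casq1* and *Itpr2*), and the genes lie on 8 chromosomes. All 13 loci were found through the neighbour column alone. Having a locus is therefore what chose these genes and is no result about them.

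Left atria came from adult mice of 6 to 8 weeks, 4 *Tbx5* knockout and 3 control. Knockout mice carried *Tbx5* fl/fl with R26 CreERt2, a Cre expressed in all tissues that tamoxifen activates, and the deletion was induced a week before collection. Control mice carried R26 CreERt2 without the floxed *Tbx5*. All were male and of mixed strain. Because the Cre acts in every tissue, the deletion was not limited to atrial cells. Non-polyadenylated RNA was sequenced with its strand, and transcripts assembled from the reads were compared between genotypes by the study. The deposited list used here gives positions and annotation of loci and no level per library. Depth, the spread between animals, the loss of *Tbx5* and the markers of atrial tissue could therefore not be examined, and no fold change stands behind any locus named here. The direction of change was not assigned either, since the marks on the list conflict. Its row count, an empty row included, equals that of the ncRNAs the study gives as higher in the knockout, and its sheet name says up. The number in the sheet name, however, points to lower. So does a heading that says dn, which may concern the linked genes alone. The list holds only some of the ncRNAs called by the study, so a gene without a listed locus may still lie beside one that was not analysed here.

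Each atrial beat depends on calcium entering through voltage-gated channels of the surface membrane and opening ryanodine receptors of the sarcoplasmic reticulum, the internal calcium store. Calsequestrins hold calcium in that store, junctophilins keep the store close to the surface membrane, and plasma membrane pumps carry calcium out of the cell. Inositol trisphosphate (IP3) receptors are a further release channel, which is abundant in atrial muscle. TBX5 is a T-box transcription factor known for its part in atrial rhythm, and enhancers, the distal elements that such factors bind, are often transcribed into short ncRNAs.

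The starts of 3 of these genes are printed, chosen for the place of the genes in the results below. *Casq2* was the member with loci closest to its start, and *Ryr2* and *Cacna2d2* were the members given as linked genes. Each sequence is the 250 bases before a RefSeq start of the gene on GRCm38.p6, read 5′ to 3′ on the strand of the gene. The *Cacna2d2* sequence lies within its GENCODE gene body and partly within its RefSeq gene body, so it belongs to an internal start. Capitals mark the letters GGGCGG of a GC box, the element that SP1 factors bind.
*Casq2*, chr3:102086165-102086414, plus strand: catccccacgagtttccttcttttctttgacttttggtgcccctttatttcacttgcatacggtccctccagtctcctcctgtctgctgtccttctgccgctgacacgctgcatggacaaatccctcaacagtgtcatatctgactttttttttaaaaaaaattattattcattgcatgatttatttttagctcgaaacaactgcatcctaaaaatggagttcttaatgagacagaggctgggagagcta
*Ryr2*, chr13:12106946-12107195, minus strand: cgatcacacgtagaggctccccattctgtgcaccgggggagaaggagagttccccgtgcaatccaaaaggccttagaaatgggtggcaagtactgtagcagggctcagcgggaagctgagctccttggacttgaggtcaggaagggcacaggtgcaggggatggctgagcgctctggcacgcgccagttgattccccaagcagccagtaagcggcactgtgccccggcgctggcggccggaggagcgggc
*Cacna2d2*, chr9:107399630-107399879, plus strand: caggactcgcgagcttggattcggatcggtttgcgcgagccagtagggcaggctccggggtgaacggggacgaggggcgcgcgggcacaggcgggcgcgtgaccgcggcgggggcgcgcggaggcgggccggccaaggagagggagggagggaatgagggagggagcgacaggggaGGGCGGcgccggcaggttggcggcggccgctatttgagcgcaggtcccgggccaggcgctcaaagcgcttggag
RefSeq promoters were found for 8 of the 10 genes, 10 promoters in all, since *Jph2* and *Atp2b1* had 2 each and *Cacna1h* and *Itpr1* had none in the table used. The *Casq2* promoter was poor in G and C, at 41.6%, with 5 CpG dinucleotides. The *Ryr2* promoter held 63.2% G and C with 14 CpG, and the *Cacna2d2* promoter 74.4% with 34 CpG. Across 32851 mouse promoters the median was 52.4% G and C and 6 CpG. The *Casq2* and *Cacna2d2* promoters thus lie on opposite sides of the median of all promoters in G and C.

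Short motifs were searched on both strands, with overlaps allowed. The T-box letters AGGTGT were in 0 of 10 member promoters and in 11.8% of all promoters. The GATA letters AGATAA were in 1 of 10, that of *Atp2b4*, and in 9.99% of all promoters. The only *Atp2b4* promoter searched (chr1:133753748-133753997, minus strand) lies inside the gene body. The bases before the annotated start of *Atp2b4* were therefore not searched for any of these motifs. The TATA letters TATAAA were in 0 of 10 and in 12.4% of all. The GC box letters GGGCGG were in 7 of 10 member promoters, those of *Atp2b1*, *Cacna2d2*, *Casq1*, *Itpr2* and *Jph2*, and in 32.7% of all promoters. The 2 *Jph2* promoters overlap and share their single match, so that by gene the count was 5 of 8. Member promoters with a match held 61.6 to 80.8% G and C, above the upper quartile of all promoters, 61.2%. Whether base content accounts for the matches was not tested. Both *Atp2b1* promoters and a *Jph2* promoter lie wholly or partly inside the GENCODE gene body. A match is a run of letters and was not tested for binding. The listed loci themselves were not searched, since no genome sequence was at hand.

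**Figure D1:**
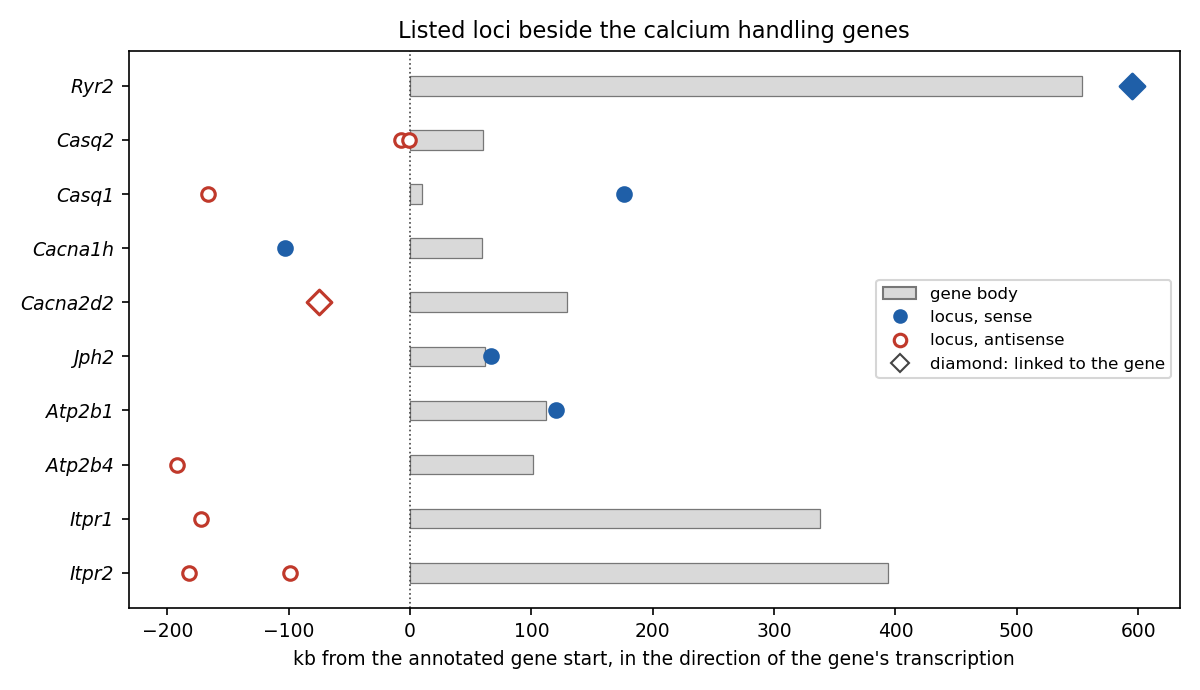
Position of each listed locus (points) in kb from the annotated start of its calcium handling gene (grey bar, gene body), drawn in the direction of transcription of the gene, with filled points in sense, open points antisense and diamonds for loci linked to the gene. By the listed strand, all 4 loci past a gene's end were in sense, and 8 of the 9 loci before a gene's start were antisense. The loci of *Atp2b4* and *Itpr2* carried the mark for transcription from both strands.

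The ryanodine receptor gene had its locus past its far end. *Ryr2* encodes the calcium release channel of the cardiac sarcoplasmic reticulum and spans 553.8 kb on the minus strand of chromosome 13 (chr13:11553102-12106945, mm10 as throughout). Its locus, XLOC_014719, lay at chr13:11511922-11512038 on the same strand and was 117 bp long. It was 41.1 kb downstream of the gene body in sense orientation, and 594.9 kb from the annotated *Ryr2* start. The nearest start of a coding transcript of *Ryr2*, an internal one, was 134.6 kb away. No coding gene lay between them, and the list named only 1 other neighbour, *Chrm3*, a muscarinic acetylcholine receptor gene at 1151 kb. The mean phastCons score, a measure of conservation across species between 0 and 1, was 0.0488. *Ryr2* was the linked gene of this locus. The next listed locus, XLOC_014760, lay 572.3 kb upstream of *Ryr2*. An ncRNA that the study describes closer upstream of *Ryr2* was not analysed here.

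*Casq2* had the closest loci of the 10 genes. It encodes the cardiac calsequestrin, the main calcium buffer of the sarcoplasmic reticulum, at chr3:102086415-102146514 on the plus strand. XLOC_036661 (chr3:102084802-102085295) was 494 bp long and ended 1.12 kb before the gene. XLOC_036659 (chr3:102078395-102078567) was 173 bp long and lay 7.85 kb before it. Both were on the minus strand, pointing away from *Casq2*. They lay 6.23 kb apart and formed the only cluster, that is, loci at most 10 kb apart, among the 13. Between XLOC_036661 and the promoter printed above were 869 bases, and between XLOC_036659 and that promoter 7597. The farther locus had the higher score, 0.139, against 0.0265 for the nearer one. Neither had a linked gene. The other listed neighbours of both were *Nhlh2*, *Vangl1* and *Slc22a15*, the closest of them at 62.9 kb from XLOC_036659, so *Casq2* was the closest listed gene of both loci. The next listed locus was 1055 kb from the gene.

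*Casq1*, which encodes the calsequestrin of skeletal muscle, showed the opposite arrangement. The gene is the shortest of the 10, at 9.975 kb (chr1:172209894-172219868, minus strand), and its 2 loci lay on either side of it at nearly the same distance. XLOC_001624 (chr1:172386408-172386621, plus strand, 214 bp, score 0.111) was 166.5 kb upstream and antisense. XLOC_003512 (chr1:172043553-172043672, minus strand, 120 bp, score 0.00581) was 166.2 kb downstream and in sense. In each case 6 coding genes lay in between. For the downstream locus these were *Copa*, *Dcaf8*, *Ncstn*, *Nhlh1*, *Pea15a* and *Pex19*. The nearest coding gene was *Pigm*, a glycolipid anchor enzyme, at 2.31 kb from XLOC_001624, and *Nhlh1*, a helix-loop-helix factor, at 8.62 kb from XLOC_003512. Both loci were downstream of those genes in sense. *Casq1* ranked 11 of 13 listed neighbours of XLOC_001624 by distance and 10 of 10 of XLOC_003512, and neither locus had a linked gene. *Casq1* was thus named by loci that stood closer to 9 or more other genes.

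*Jph2* encodes the junctophilin of heart muscle and lies at chr2:163336242-163397993 on the minus strand. Its locus, XLOC_033505 (chr2:163330908-163331016, minus strand), was 109 bp long with a score of 0.0296. It lay 5.23 kb downstream of *Jph2* in sense and 67.0 kb from its start. The end of *Tox2*, an HMG-box factor gene transcribed toward it on the other strand, was 6.74 kb away. The locus therefore lay between the ends of a converging pair of genes, on the strand of *Jph2*. It had no linked gene.

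The 2 voltage-gated channel genes each had a single locus, upstream and at a distance. *Cacna1h* encodes the pore of a T-type calcium channel and lies at chr17:25374285-25433783 on the minus strand. XLOC_024199 (chr17:25536708-25536931, minus strand, 224 bp) was 102.9 kb upstream in sense, the only upstream locus of the 13 that was. Its score of 0.00242 was the lowest of the 12 member loci with one. *Sstr5*, a somatostatin receptor gene, and *Tekt4*, a sperm flagellum gene, lay between, and *Cacna1h* ranked 5 of 12 listed neighbours. The linked gene was *Tekt4*, at 60.1 kb, and not *Cacna1h*. The nearest coding gene was *Sox8*, a transcription factor gene 28.96 kb away. An annotated long intergenic RNA on the same strand, AC131323.5, lay 0.085 kb from the locus.

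*Cacna2d2* encodes an auxiliary α2δ subunit of voltage-gated calcium channels and lies at chr9:107399612-107529343 on the plus strand. XLOC_058971 (chr9:107324693-107324921, minus strand, 229 bp) was 74.7 kb upstream and antisense, and was the 1 member locus without a conservation score. It was linked to both *Cacna2d2* and *Dock3*, a gene for a Rac exchange factor at 92.8 kb. By distance *Cacna2d2* ranked 5 of 6 listed neighbours. *6430571L13Rik* and *Hemk1*, a methyltransferase gene, lay between, and the end of *Hemk1* was 2.16 kb from the locus, in sense. Neither linked gene was the nearest one.

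The plasma membrane calcium pumps differed in where their loci stood. *Atp2b1* (chr10:98914406-99026143, plus strand) encodes the widely expressed pump, and its locus, XLOC_004736, began 8.20 kb past the gene end in sense (chr10:99034342-99034429, plus strand). At 88 bp it was the shortest member locus, with a score of 0.0895. It lay 119.9 kb from the *Atp2b1* start and 19.3 kb from an internal transcript start. A further listed locus, XLOC_004741, lay 441.9 kb downstream in sense and did not name *Atp2b1*. *Atp2b4* (chr1:133699457-133801041, minus strand) encodes another pump of the same family. Its locus, XLOC_001140 (chr1:133993454-133993620, plus strand, 167 bp, score 0.0383), carried the mark for transcription from both strands. It was 192.4 kb upstream and antisense, the largest distance of the 13, with *Optc* and *Prelp*, genes of small leucine-rich proteoglycans, in between. The nearest coding gene, *Fmod* at 43.6 kb, belongs to that family too. Neither pump was linked to its locus.

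The IP3 receptor genes had only upstream, antisense loci. *Itpr1* (chr6:108213096-108551109, plus strand) had XLOC_047728 (chr6:108040493-108040668, minus strand, 176 bp, score 0.0185) at 172.4 kb, past *Setmar* and *Sumf1*. *Setmar*, a histone methyltransferase gene, was nearest at 24.4 kb. This was the most isolated member gene, as the next listed locus lay 8532 kb away. *Itpr2*, which encodes the main IP3 receptor of heart muscle, lies on the same chromosome at chr6:146108299-146502223 on the minus strand. XLOC_046551 (chr6:146601478-146601634, plus strand, 157 bp) lay 99.3 kb upstream of it and XLOC_046555 (chr6:146684496-146684884, plus strand, 389 bp) 182.3 kb upstream. Both carried the mark for transcription from both strands. The score of XLOC_046551, 0.252, was the highest of the member loci and that of XLOC_046555 was 0.0321.

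Between XLOC_046551 and *Itpr2* lay *Fgfr1op2* and *Ints13*, and XLOC_046555 was also separated from it by *Med21* and *Tm7sf3*. *Ints13* and *Med21* encode subunits of the Integrator and Mediator complexes, which act in transcription. XLOC_046551 lay 0.717 kb past the end of *Tm7sf3* in antisense and 2.28 kb past that of *Fgfr1op2* in sense, so it stood between converging genes. *Itpr2* ranked 5 of 7 and 8 of 8 among the listed neighbours. No linked gene was given for any IP3 receptor locus. In all, 5 listed loci lay within 500 kb of the *Itpr2* gene body. One of those that did not name it, XLOC_046536, was 185.6 kb downstream of the gene, nearly the same distance as XLOC_046555.

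**Figure D2:**
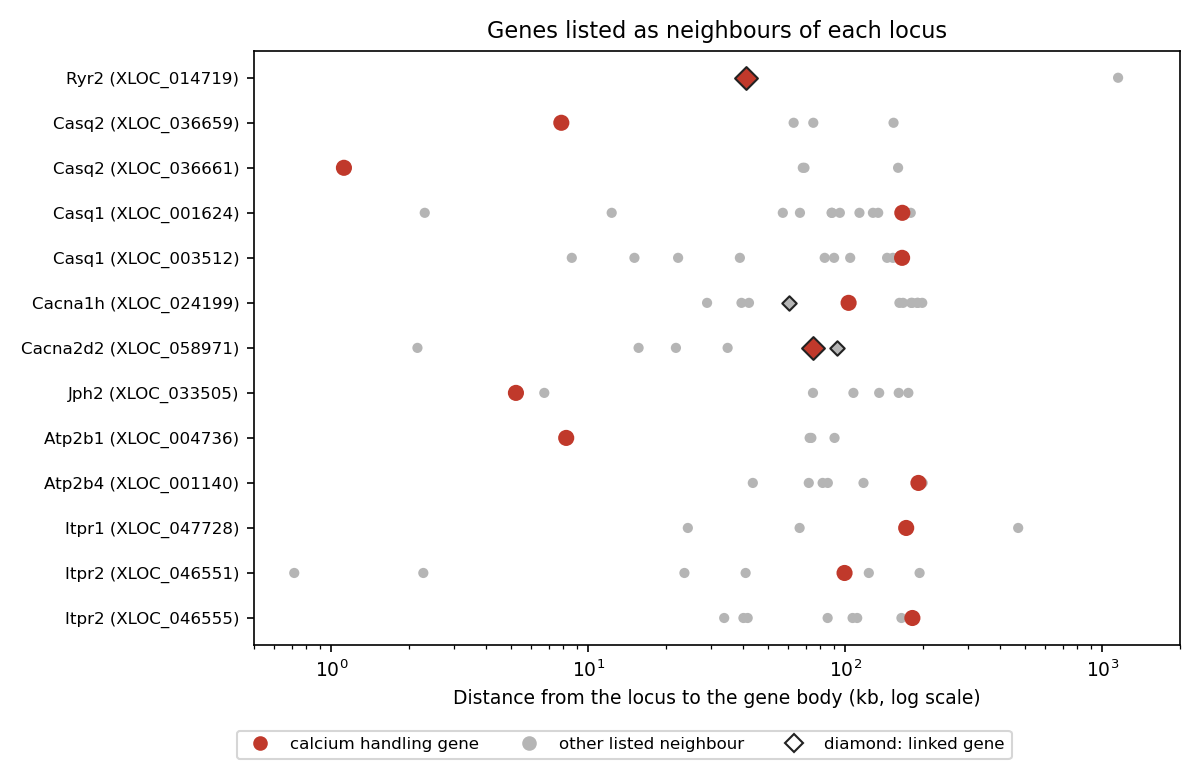
Distance in kb on a log scale of every gene listed as a neighbour of each of the 13 loci, with the calcium handling gene in red, other neighbours in grey and diamonds for linked genes. *Ryr2*, *Casq2*, *Jph2* and *Atp2b1* were the nearest listed gene of their loci, while the other 6 genes lay behind closer neighbours.

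The genes fell into 2 sets by this measure. The member gene was the closest listed neighbour in 5 of 13 pairs, those of *Ryr2*, *Casq2* (2 loci), *Jph2* and *Atp2b1*, or 38.5% (95% Wilson interval 17.7 to 64.5%). Over all neighbour pairs of the list that share was 22.6%. Such a share is set mostly by how many neighbours a locus lists. The median number was 7 for member loci and 3 for all loci, so nothing is read from this difference. In the other 8 pairs, at least 2 coding genes lay between the locus and the member. The member gene was within 10 kb in 4 of 13 pairs, 30.8% (12.7 to 57.6%), against 10.9% of all pairs. It was within 100 kb in 53.8%, against 51.7% of all pairs. The median distance was 99.3 kb (7.85 to 172.4 kb, an order-statistic interval), against 95.6 kb over 6595 pairs. Median distances of member pairs and of all pairs were thus close, and the 4 member pairs within 10 kb came from *Casq2*, *Jph2* and *Atp2b1* alone. Such intervals cover counting error alone, and pairs that share a gene are not independent.

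**Figure D3:**
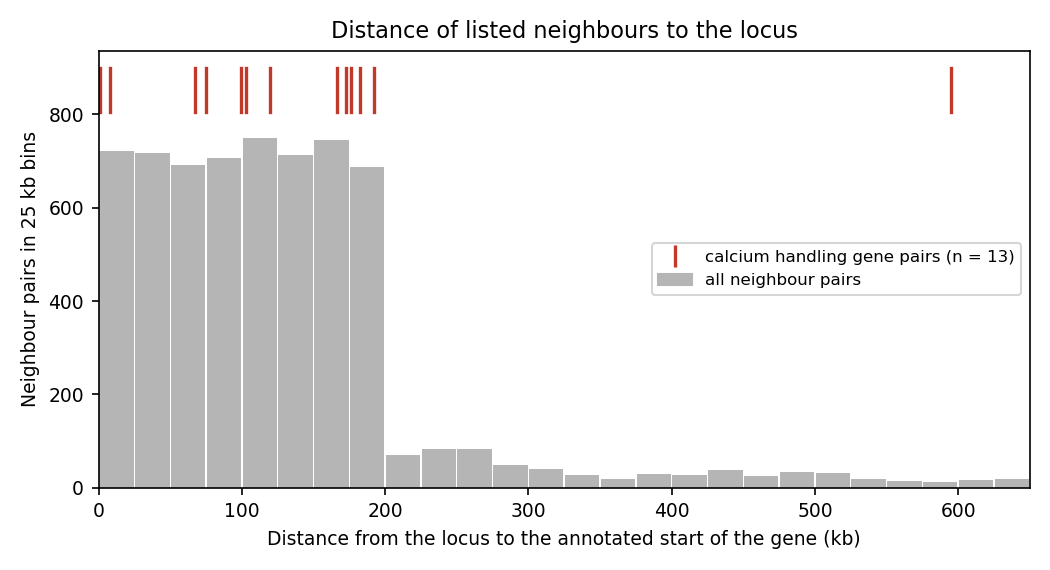
Number of neighbour pairs in 25 kb bins of the distance in kb between a locus and the annotated start of the gene (grey bars), with the 13 calcium handling pairs as red ticks. Pairs were about evenly spread up to 200 kb and few beyond it, and 12 of the 13 member pairs lay within 200 kb, all but that of *Ryr2*.

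These distances were bounded by how the neighbour column was made. At the near end, the study kept only distal ncRNAs, so transcripts nearest to coding gene starts by its annotation were left out beforehand. Of coding genes whose start lay within 200 kb of a locus, 97.4% were listed as its neighbours, and 79.3% when the limit was 250 kb. In 12 of 13 member pairs, and in 86.9% of all pairs, the gene start was within 200 kb. *Ryr2* was the exception, named as the gene beside the locus with its start 594.9 kb away. For a long gene, a locus past its far end can therefore go without naming it, as the *Itpr2* example shows. How often this occurs was not counted. Within 100 kb of a member gene body lay 7 listed loci, within 500 kb 17 and within 1000 kb 26, whichever gene they named. Of the 26 loci, 8 lay around *Ryr2* alone, where the rule counted 1.

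By the listed strand, side and orientation went together among the members, though not among the other calcium handling genes described further below. All 4 downstream loci, beside *Ryr2*, *Casq1*, *Jph2* and *Atp2b1*, were in sense, against 58.7% of downstream pairs over the list and 74.8% of those within 10 kb. Of 9 upstream loci only that of *Cacna1h* was in sense, 11.1% (1.99 to 43.5%), against 54.4% of upstream pairs over the list. Among those counted as antisense, 3 carried the mark for transcription from both strands, those of *Atp2b4* and *Itpr2*. Their listed strand alone does not settle their orientation. The 2 *Casq2* loci, also antisense, formed a cluster. Sense pairs were 38.5% of the member pairs and 57.0% of all. Upstream pairs were 69.2% of member pairs and 51.4% of all. Set against its nearest coding gene of any kind, a member locus was downstream in 9 of 13 cases, and 8 of those 9 were in sense. Over the list, 53.2% of loci were downstream of the nearest coding gene and 76.1% of those were in sense. Of the 8 upstream antisense loci, those of *Casq1* and *Cacna2d2* and XLOC_046555 of *Itpr2* lay in sense downstream of a closer gene (*Pigm*, *Hemk1* and *Med21*). The other *Itpr2* locus, XLOC_046551, was antisense to its nearest gene, *Tm7sf3*. The *Atp2b4* and *Itpr1* loci were upstream of their nearest genes, *Fmod* and *Setmar*, and both *Casq2* loci had *Casq2* itself as nearest gene.

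A linked gene was given for 3 of 13 member loci, against a background of 25.8% of the 1489 loci. The loci were those of *Ryr2*, *Cacna2d2* and *Cacna1h*. Of the 10 member genes 2 were linked, *Ryr2* and *Cacna2d2*, against 7.27% of all neighbour genes. Since the genes were taken up with the list in view, nothing is read from this difference. The linked pairs had no common arrangement. *Ryr2* lay beside its locus with its far end toward it and no gene between, whereas *Cacna2d2* had its start toward the locus and 2 genes between. The genes closest to a locus, *Casq2*, *Jph2* and *Atp2b1*, were without a link. A missing link does not show that a gene, or the genes near a locus, were unchanged.

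**Figure D4:**
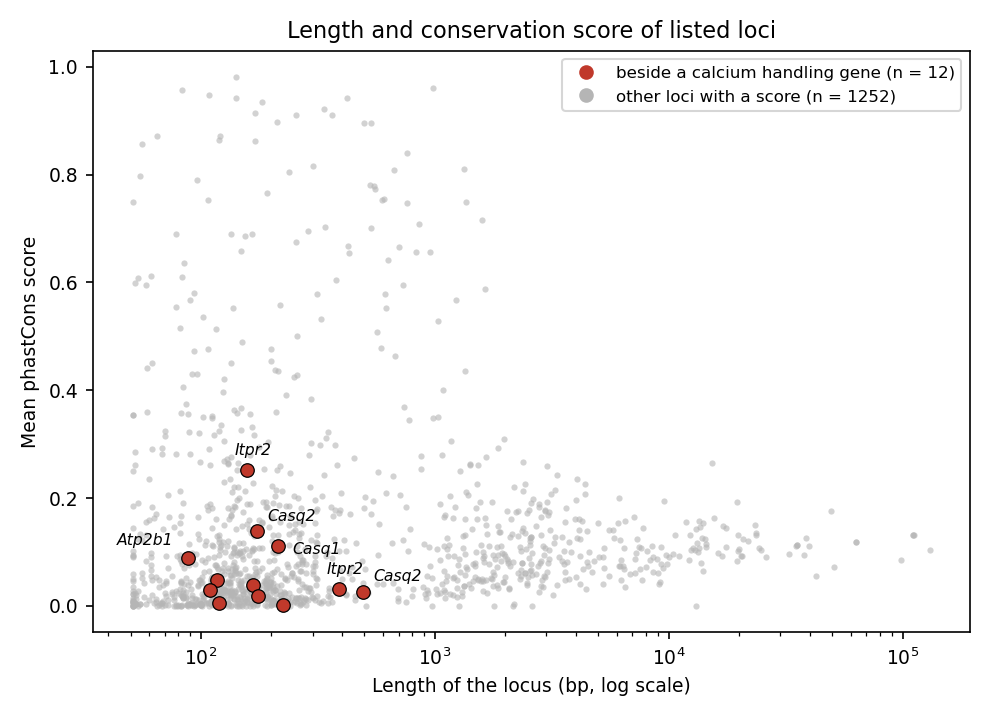
Length in bp on a log scale and mean phastCons score (0 to 1, no unit) of the 12 member loci that have a score (red) and of the other listed loci with one (grey), with labels on the 6 member loci of highest score or greatest length. Member loci sat between 88 and 494 bp and at or below a score of 0.252.

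Member loci were short, as was much of the list, and mostly single. Their median length was 173 bp (117 to 229 bp), against 197 bp (185 to 207 bp) over all loci, and the longest, 494 bp beside *Casq2*, exceeded the length of a majority of listed loci, as 69.7% of the list was no longer. None came from the long transcripts of the list, which reach 130851 bp. The median score was 0.0352 (0.0185 to 0.111, n = 12), against 0.0759 (0.0689 to 0.0830, n = 1264) for all scored loci, and these intervals overlap. At 10 kb, 11 of 13 member loci were alone, all but the *Casq2* pair, against 54.9% of the list. None of the 13 overlapped any GENCODE gene, against 67.3% of the list without an overlap. Both strands were marked as transcribed at 3 of 13, those of *Atp2b4* and *Itpr2*, against 23.4% of the list. The median number of listed neighbours was 7 (4 to 10), against 3 for all loci, and a locus with more neighbours has more chances to name any given gene.

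Calcium handling genes at large were taken from a list of 68 genes, 67 of them annotated, grouped by role. Of the 67, 17 had a listed locus, the 10 members among them, or 25.4%, against 17.5% of 21951 coding genes. That count holds the genes that were chosen for having a locus, and only 7 of the 17 were not members. These shares therefore cannot be compared. By role these were 4 of 16 genes of sarcoplasmic reticulum release, 3 of 18 voltage-gated channel genes, 4 of 7 export genes, 2 of 3 IP3 receptors, 1 of 5 annotated genes of sarcoplasmic reticulum uptake, 1 of 5 of store-operated entry, 1 of 9 of calmodulin signalling and 1 of 4 of mitochondrial uptake. The genes with no listed locus included *Atp2a2* and *Pln*, the cardiac calcium pump and its inhibitor, and *Cacna1c*, the pore of the L-type channel. Their absence says nothing on *Tbx5*-dependent ncRNAs outside the list. The study itself shows such an ncRNA adjacent to *Atp2a2*, whereas the closest listed locus lay 2434 kb from that gene. *Slc8a1*, an export gene, was likewise named by no locus, although a listed locus lay 46.1 kb from its gene body.

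The 7 further genes had 9 loci, of which 8 were downstream, whereas 9 of the 13 member loci were upstream. That difference was not tested. *Slc8a3*, a sodium-calcium exchanger gene, had loci 5.87 and 7.84 kb downstream in antisense, both linked to *Gm4787*. *Stim2*, a calcium sensor of the endoplasmic reticulum, had one 4.06 kb downstream in sense. *Smdt1*, a subunit of the mitochondrial uniporter, had one 19.7 kb downstream in sense that was linked to *Cyp2d22* and *Sept3*. *Calm3*, a calmodulin gene, had one 41.1 kb downstream in sense, linked to *Pnmal2*. *Atp2a3*, a calcium pump gene of the reticulum, had loci 24.4 and 166.0 kb downstream in antisense. *Slc8a2*, another exchanger gene, had one 139.3 kb downstream in antisense. The *Slc8a2* locus and the farther *Atp2a3* locus carried the mark for transcription from both strands. *Cacna1s*, the skeletal muscle channel pore, was the only linked gene of these 7, through XLOC_001176 at 194.5 kb upstream in sense. At 1603 bp that locus was over 3 times the length of any member locus. Linked genes among the 17 were thus *Ryr2*, *Cacna2d2* and *Cacna1s*, at 41.1, 74.7 and 194.5 kb from their loci. Side and orientation did not go together in these 7 genes as they did among the members. Downstream loci were antisense beside *Slc8a3*, *Atp2a3* and *Slc8a2* and in sense beside *Stim2*, *Smdt1* and *Calm3*. The only upstream locus, beside *Cacna1s*, was in sense.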

How the data were processed

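Non-polyadenylated RNA of 4 *Tbx5* knockout and 3 control left atria was sequenced. The submitters' processing notes name TopHat2 (2.0.13 and 2.0.10), Cufflinks, featureCounts and DESeq. Transcripts were assembled de novo on mm10 and compared between genotypes by the authors, who narrowed the list to distal ncRNAs near changed coding genes. Results may not hold for other ncRNAs. The phastCons score per locus was averaged by the authors over its mm9 bases. The 2 deposited tables were identical and used once, and 1 row was empty. Levels per library were not analysed here.

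Positions were compared with GENCODE M21 in Python 3.11.15 (numpy 2.4.6, scipy 1.17.1). Distances run between closest edges, and side follows the strand of the gene. Of 6656 neighbour entries, 6595 were matched, 89 of 89 for member loci. The steps were tested on simulated positions. Members and lists were chosen with earlier results of these data known, and the TATA and GC box letters later, so no test was run over members. Shares carry 95% Wilson intervals. Genes named were the members, the nearest, intervening, closer or linked genes of their loci, and calcium handling list genes. *Chrm3*, *Nhlh2*, *Vangl1*, *Slc22a15*, *Tox2*, *Atp2a2*, *Pln*, *Cacna1c* and *Slc8a1* were named after their values were seen.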

Additional observations from a re-analysis of the deposited data

How the results depend on the processing

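A count was taken as changed when it moved by over 1.5 times, and a median or share when it left the 95% interval of the reported value, which is wide for 13 loci. By these limits 31 of 35 alternatives over 9 results brought no change. The number of member loci, 13, became 2 with the linked column alone, 7 for any listed locus within 100 kb of a member gene body and 26 within 1000 kb. The 17 list genes with a locus became 33 when any gene body within 500 kb of a listed locus was counted. That was 49.3% of 67, against 36.0% of all coding genes. The count holds the members, which were chosen for having a locus, so these shares cannot be compared. The median distance of 99.3 kb was 119.9 kb to the gene start and 74.7 kb without *Casq1* or without *Itpr2*, settings chosen after seeing the data. Without *Itpr2* the share of loci marked on both strands was 9.09%, against 23.1% with it. No paired analysis was possible because the list holds no value per library, and for that reason neither the comparison of knockout with control nor the leaving out of libraries was run. The search of the loci for T-box letters was not run for want of a genome sequence, and leaving out annotated loci removed none. Depth, and with it the precision of each call, is unknown.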
